A study of Rattus norvegicus with 115 samples.

Results

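The comparison set the brain hemisphere without tumour of rats treated with microbeam radiation therapy (MRT) against that of untreated rats, both taken 8 d after the time of treatment. It used 10 of the 115 arrays of the study, chosen by their labels alone: 6 MRT rats (rats 32, 33, 34, 35, 37 and 38) and 4 untreated rats (rats 28, 29, 30 and 39), with 1 array of total RNA per rat. All of them, untreated rats included, were Fisher rats that had received an injection of 9L cells, a transplantable rat brain tumour line, in the right caudate nucleus. Treatment came 10 days after that injection. The sampled tissue was labelled normal brain and came from the side opposite the tumour, so the untreated group is brain of tumour-bearing rats and not of healthy ones. MRT splits a synchrotron beam into arrays of narrow parallel beams, here with a dose of 400 Gy in the beams and 18 Gy in the valleys between them. The study also treated rats with an undivided broad beam (BB) at a dose near that of the MRT valleys, took the tumours of the same rats, and sampled at 6 h, 48 h and 15 d as well. The labels gave neither sex nor age for these rats.

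Radiation damage to DNA activates the transcription factor p53, which switches on genes for cell-cycle arrest, DNA-damage signalling and cell death. Double-stranded RNA and DNA outside the nucleus start type I interferon signalling, which induces antiviral genes in most cell types through a shared promoter element. Microglia, the resident macrophages of the brain, lower their resting-state genes and raise lysosomal, receptor and antigen-presentation genes when they respond to injury, while oligodendrocyte precursors are dividing glia known to be sensitive to radiation.

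The labelled tissue was checked against cell type markers first. All 10 arrays were brain: the mean log2 intensity of the neuron markers was 11.29 to 11.56 in the 6 MRT rats, against 11.71, 11.44, 11.66 and 11.46 in untreated rats 28, 29, 30 and 39. Transcripts that mark 9L tumour were not equally low in all arrays. The mean of the 9L tumour-high genes was 4.94 to 5.30 in MRT rats, against 5.10, 6.11, 7.48 and 5.16 in those untreated rats. Mmp3, a matrix metalloproteinase, had an intensity of 17 to 27 in MRT rats, against 27, 131, 582 and 15 in the untreated rats. Untreated rat 30, and to a smaller degree rat 29, therefore stood apart. The called probe sets and genes, the list calls and the probe set totals for differences between times or tissues were also counted without these 2 rats. The shares of genes with separate groups and the counts past 1 on the log2 scale were not. Neither were the BB counts, nor the list counts in tumours and between times or tissues. The piece of brain sampled varied too: the mean of the choroid plexus markers, genes of the tissue that makes cerebrospinal fluid, was 6.90 to 8.12 in MRT rats, against 5.89, 7.27, 6.26 and 6.09 in untreated rats. RNA integrity differed slightly, since the log2 difference between the 3' and 5' control probe sets of Gapdh was 0.25 to 0.68 in MRT rats and 0.10, 0.10, 0.27 and 0.15 in untreated rats. In a piece of tissue, fewer cells of a type and less RNA per cell cannot be told apart.

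At an adjusted p under 0.05, 1521 of 31042 probe sets differed between MRT and untreated brain, which is 4.9%. Of these, 1017 were higher in MRT brain (3.28%) and 504 were lower (1.62%). With each gene represented by its brightest probe set, 946 of 14217 genes differed (6.65%), 693 higher (4.87%) and 253 lower (1.78%). With every array set to 1 shared median the split was 670 higher and 402 lower. Differences of more than 1 on the log2 scale among the called genes were 203 higher (1.43%) and 40 lower (0.281%). The median difference over all genes was 0.02. The values of the 6 MRT rats lay entirely above those of the 4 untreated rats for 7.88% of all genes and entirely below for 3.56%. Without untreated rats 29 and 30 the number of called genes was 513.

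Among called genes with separate groups, the largest rises came from extracellular proteases, phagocyte receptors, antiviral genes and Mgmt. Mmp12, macrophage metalloelastase, had intensities with a lowest, median and highest value of 296, 464.5 and 682 in MRT brains, against 31, 24, 38 and 24 in untreated brains. No MRT rat came near the untreated rats, and the log2 difference was 4.00 ± 0.23 (SE; limma, adjusted p = 6.9e-19). Cybb, the membrane subunit of the phagocyte NADPH oxidase, had 1123, 1351.5 and 1696 in MRT brains, against 80, 118, 142 and 163 in untreated brains, a log2 difference of 3.49 ± 0.29 (adjusted p = 6.7e-13). Clec7a, the fungal beta-glucan receptor of myeloid cells, had 615, 697.5 and 882 in MRT brains, against 43, 76, 107 and 53 in untreated brains. Lilrb4, an inhibitory receptor of myeloid cells, had 282, 321.5 and 357 in MRT brains, against 30, 41, 55 and 56 in untreated brains. Both receptors were separate between the groups in every rat, with log2 differences of 3.45 ± 0.34 and 2.88 ± 0.41. Plau, the urokinase plasminogen activator, rose by 2.76 ± 0.26, and Slamf9, a receptor of the signalling lymphocyte activation family, rose by 2.75 ± 0.23. Slfn4 rose by 3.15 ± 0.54 by its brightest probe set, while its other probe set gave 0.01. Atf3, a stress-induced transcription factor, had 225, 278 and 629 in MRT brains, against 33, 38, 84 and 43 in untreated brains, where MRT rat 35 was the high array. All 15 genes with the largest rises kept their call in each of 24 alternative fits.

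**Figure D1:**
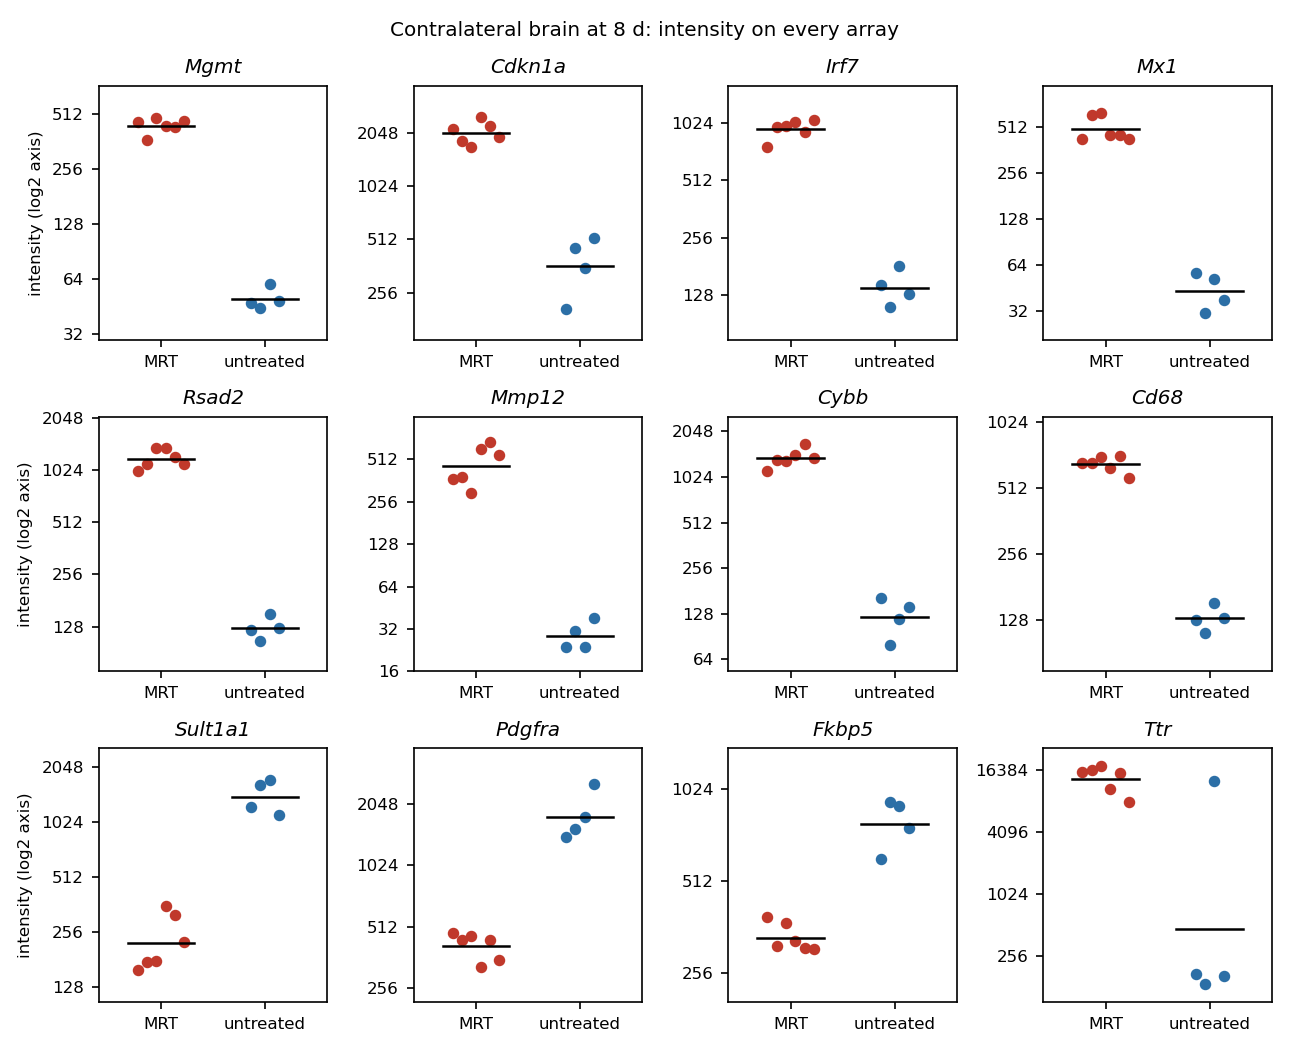
Deposited intensity (log2 axis) of 12 genes in each array, 6 MRT brains (red, left) beside 4 untreated brains (blue, right), with a bar at the mean of the log2 values. Mgmt, Cdkn1a, Irf7, Mx1, Rsad2, Mmp12, Cybb and Cd68 lie higher in every MRT array, Sult1a1, Pdgfra and Fkbp5 lie lower in every MRT array, and Ttr is high in all MRT arrays and in untreated rat 29.

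The largest fall was in Sult1a1, a sulfotransferase that conjugates phenols and steroid hormones. Its intensities were 157, 201 and 352 in MRT brains, against 1644, 1741, 1117 and 1246 in untreated brains. The groups were far apart, and Sult1a1 fell by 2.67 ± 0.22 on the log2 scale (adjusted p = 5.5e-13). Gpd1, cytosolic glycerol-3-phosphate dehydrogenase, had 624, 731 and 1068 in MRT brains, against 3365, 4005, 2403 and 2085 in untreated brains, and fell by 1.91 ± 0.28. Tnnc2, a troponin C, fell by 1.95 ± 0.24. Pdk4, the kinase that holds back pyruvate oxidation, fell by 1.54 ± 0.28, Pnpla2, the triglyceride lipase of lipid droplets, fell by 1.28 ± 0.17, and Sult1d1, another sulfotransferase, fell by 1.67 ± 0.30. Eva1a, a regulator of autophagy and apoptosis, fell by 1.27 ± 0.24. Of the 15 largest falls, 3 lost their call when 1 array was left out: Mgst2, Ocm and P2ry12, which is described with the microglial genes. Mgst2, a microsomal glutathione S-transferase, had 64, 96 and 130 in MRT brains, against 159, 426, 1084 and 165 in untreated brains, with rat 30 the highest. It fell by 1.83, and without rat 30 the log2 difference was -1.26 with an adjusted p of 0.0763. Ocm, the calcium-binding oncomodulin, had 14, 27.5 and 33 in MRT brains, against 37, 93, 404 and 40 in untreated brains, and fell by 1.80, while without rat 30 the log2 difference was -1.06 with an adjusted p of 0.368. Its call also ended without untreated rat 29 (adjusted p = 0.0631) and without MRT rat 32 (adjusted p = 0.0773).

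Genes under p53 were still raised 8 d after irradiation. Of 22 measured p53 targets, 11 were higher and 1 was lower in MRT brain, with a median log2 difference of 0.52. Cdkn1a, which encodes the p21 inhibitor of cyclin-dependent kinases, had 1700, 2052 and 2514 in MRT brains, against 457, 353, 521 and 206 in untreated brains. The lowest MRT rat was above the highest untreated rat by a wide margin, with a log2 difference of 2.50 ± 0.22 (adjusted p = 2.4e-12). Phlda3, a repressor of Akt, had 636, 834 and 1033 in MRT brains, against 203, 190, 233 and 166 in untreated brains, and rose by 2.06 ± 0.17 (adjusted p = 4.1e-13). Mdm2, the ubiquitin ligase that degrades p53, had 1350, 1580.5 and 1684 in MRT brains, against 627, 648, 692 and 633 in untreated brains, and rose by 1.26 ± 0.12. These 3 genes were separate between the groups. The death receptor Fas rose by 2.29 ± 0.20, the nuclease Aen rose by 1.45 ± 0.13 and the secreted stress factor Gdf15 rose by 2.01 ± 0.23. Sesn1, a sestrin that restrains growth signalling, was the exception: it had 509, 589.5 and 605 in MRT brains, against 1002, 861, 714 and 997 in untreated brains, and fell by 0.62 ± 0.12. Without untreated rats 29 and 30, 9 p53 targets were called higher.

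Mgmt, the enzyme that removes alkyl groups from guanine in DNA, gave the smallest p of these rises. It had 371, 453.5 and 488 in MRT brains, against 44, 60, 48 and 47 in untreated brains. All MRT rats were above all untreated rats, with a log2 difference of 3.17 ± 0.15 (adjusted p = 1.8e-22). Ephx1, the microsomal epoxide hydrolase, had 775, 962.5 and 1384 in MRT brains, against 296, 310, 243 and 284 in untreated brains, and rose by 1.77 ± 0.20. Probe sets named for histone H4 genes rose as well. H4cl1 had 124, 136 and 171 in MRT brains, against 28, 29, 38 and 41 in untreated brains, and Hist4h4 had 116, 134.5 and 158 in MRT brains, against 31, 29, 30 and 32 in untreated brains. The groups were separate for both, with log2 differences of 2.07 ± 0.16 and 2.14 ± 0.17. Histone H4 genes are near-identical in sequence, so which copy these probe sets measured is uncertain.

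Antiviral interferon-stimulated genes were the list with the most called members. Of 37 measured, 34 were higher and none was lower in MRT brain, with a median log2 difference of 1.40 against 0.02 over all genes. Irf7, the transcription factor that amplifies interferon production, had 762, 977 and 1062 in MRT brains, against 111, 182, 130 and 145 in untreated brains. It was separate in every rat, with a log2 difference of 2.76 ± 0.24 (adjusted p = 1.1e-12). Mx1, a GTPase that blocks influenza viruses, had 426, 453 and 631 in MRT brains, against 31, 52, 38 and 57 in untreated brains, a log2 difference of 3.51 ± 0.39. Rsad2, or viperin, had 1010, 1161.5 and 1380 in MRT brains, against 106, 152, 125 and 122 in untreated brains, a log2 difference of 3.25 ± 0.37. In untreated rats Mx1 was low and Rsad2 lay near the array medians, which were 123 to 131 over the 10 arrays. Both genes were high in all MRT rats. Isg15, a ubiquitin-like modifier, rose by 2.60 ± 0.31, and the enzymes of its cycle rose with it, Usp18, which removes it, by 2.59 ± 0.27 and Ube2l6, which attaches it, by 1.84 ± 0.18. Ddx60, a helicase, rose by 3.02 ± 0.43, and Rtp4, a receptor transporter, rose by 1.96 ± 0.22. The mean of the antiviral interferon-stimulated genes was 8.47 to 8.65 in the 6 MRT arrays, against 6.87, 7.12, 7.14 and 7.06 in untreated rats 28, 29, 30 and 39. Without untreated rats 29 and 30, 30 of the 37 were called higher.

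The antiviral genes moved together, and 15 of the 27 with a promoter in the table held a match to a known element. The promoters of 3 antiviral genes with a match are shown. They are the 200 bases before the transcript start, from RefSeq on the rat build GRCr8, 5' to 3' on the gene's strand, and capitals mark matches, on either strand, to GAAA followed by any 2 bases and a second GAAA, the core of the interferon-stimulated response element.
Irf7 (chr1:205800024-205800223, minus strand): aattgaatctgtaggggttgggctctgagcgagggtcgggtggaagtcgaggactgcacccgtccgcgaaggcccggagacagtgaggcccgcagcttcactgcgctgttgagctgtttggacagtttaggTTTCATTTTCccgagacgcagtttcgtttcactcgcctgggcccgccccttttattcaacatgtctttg
Ddx60 (chr16:33208840-33209039, minus strand): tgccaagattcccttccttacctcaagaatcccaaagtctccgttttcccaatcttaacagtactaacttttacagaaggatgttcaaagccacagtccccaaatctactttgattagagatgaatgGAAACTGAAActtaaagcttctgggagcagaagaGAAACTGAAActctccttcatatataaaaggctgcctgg
Rsad2 (chr6:48788121-48788320, minus strand): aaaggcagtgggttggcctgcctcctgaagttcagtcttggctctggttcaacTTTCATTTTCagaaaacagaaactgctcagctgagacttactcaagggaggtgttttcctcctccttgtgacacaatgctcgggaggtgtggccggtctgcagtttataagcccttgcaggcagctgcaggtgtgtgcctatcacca

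A match to this motif on either strand, GAAA and GAAA with 2 free bases between, occurred in 917 of 33469 promoters of the same length in the table, or 2.74%. Among the antiviral interferon-stimulated genes, 27 of 37 had a promoter in the table and 15 of these held a match, or 55.6%. The share was 54.5% of the 11 guanylate-binding and interferon-gamma genes and 50.0% of the 14 MHC class I genes with a promoter. No match was in the 17 promoters of the p53 targets, and 6.25% of the 16 promoters of the phagocyte activation genes held one. A match is a string of letters in the window and was not measured as a bound site.

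Genes induced mainly by interferon gamma moved less evenly. Of 11 guanylate-binding and interferon-gamma genes, 6 were higher, none was lower, and the median log2 difference was 1.18. Without untreated rat 28, 2 of the 11 were called higher, and 3 were with the choroid plexus markers as a covariate. Gbp4, a guanylate-binding GTPase, had 84, 108 and 133 in MRT brains, against 21, 23, 30 and 24 in untreated brains, with separate groups and a rise of 2.15 ± 0.32. The chemokine Cxcl10 had 146, 208.5 and 234 in MRT brains, against 17, 86, 72 and 57 in untreated brains, where rat 28 was lowest, and rose by 2.02 ± 0.40. Gbp2 had 440, 577 and 639 in MRT brains, against 76, 251, 364 and 241 in untreated brains, and its adjusted p of 0.009 became 0.183 without rat 28. Igtp, another interferon-inducible GTPase, passed at an adjusted p of 0.011, and at 0.124 without rat 28 it did not. Irf8, a myeloid transcription factor, was at 0.0586 without rat 28, and Gbp7 at 0.308 without rat 28, at 0.0704 without rat 30 and at 0.0957 without MRT rat 34. The call of Gbp7 also ended without MRT rats 32, 33 or 35, at 0.0576, 0.0682 and 0.0621. The chemokine Cxcl9 had 32, 43 and 145 in MRT brains, against 23, 135, 52 and 93 in untreated brains, and these overlapped.

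Antigen presentation genes were higher for both MHC classes. Of 16 MHC class I genes, which include the chains, the peptide transporter and the immunoproteasome, 13 were higher and none was lower, with a median log2 difference of 0.64. B2m, the invariant light chain, had 9664, 12276.5 and 13592 in MRT brains, against 7620, 7754, 8106 and 7788 in untreated brains. The groups did not overlap, and the log2 difference was 0.60 ± 0.12. Tap1, a subunit of the peptide transporter, rose by 1.48 ± 0.25, and RT1-S3, a class I heavy chain, rose by 1.16 ± 0.16. RT1 class I genes are close in sequence, so a probe set may have read more than 1 of them. The number called higher was 7 without untreated rat 28 and 8 without untreated rats 29 and 30. It was also 8 with the choroid plexus markers as a covariate.

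Of 8 MHC class II genes, 5 were higher and none was lower, with a median log2 difference of 0.98. Cd74, the invariant chain, had 3130, 4030 and 5226 in MRT brains, against 1683, 2435, 1319 and 2157 in untreated brains, and rose by 1.11 ± 0.31 (adjusted p = 0.024). RT1-Da, a class II alpha chain, had 2205, 3294.5 and 4953 in MRT brains, against 963, 1905, 903 and 2123 in untreated brains. The lowest MRT rat was only just above the highest untreated rat for RT1-Da, whose adjusted p was 0.043. RT1-DMb, a chain of the peptide exchange factor, had 908, 992 and 1068 in MRT brains, against 545, 556, 537 and 569 in untreated brains, and rose by 0.85 ± 0.18 (adjusted p = 0.0016). The other class II calls were close to the threshold, and 1 of the 8 genes was called higher without untreated rat 28 or without rat 30. The count was also 1 without untreated rats 29 and 30, and with the choroid plexus markers as a covariate. The differences themselves stayed near those of all 10 arrays. For Cd74 the log2 difference was 1.06 without untreated rat 28, 0.94 without rat 30 and 1.03 without MRT rat 33. For RT1-Da, at 1.25 with all arrays, it was 1.05 to 1.29 in the 7 fits without 1 array that ended its call. Without untreated rats 29 and 30 it was 1.19 for RT1-Da, with an adjusted p of 0.261. Without untreated rat 28 the adjusted p was 0.0851 for Cd74, 0.205 for RT1-Da, 0.212 for RT1-Db1 and 0.0956 for RT1-Bb. Without untreated rat 30 it was 0.136 for Cd74, 0.211 for RT1-Da, 0.169 for RT1-Db1 and 0.0614 for RT1-Bb. Without MRT rat 33 it was 0.0568 for Cd74, 0.102 for RT1-Da and 0.0938 for RT1-Db1. The calls of RT1-Da and RT1-Db1 also ended without MRT rats 32, 34 or 37, at adjusted p values from 0.0503 to 0.0731, and that of RT1-Da without MRT rat 35, at 0.0585. The class II level of untreated brains was itself not constant over the study: RT1-Da had a median intensity of 1434 in the untreated brains at 8 d, 165.5 in those at 48 h and 153 in those at 6 h.

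Phagocyte activation genes were higher and resting microglial genes were not. Of 21 phagocyte activation genes, 14 were higher and none was lower, with a median log2 difference of 1.11. Cd68, a lysosomal membrane protein of macrophages, had 571, 667.5 and 722 in MRT brains, against 112, 154, 131 and 128 in untreated brains, with a log2 difference of 2.34 ± 0.23. Lgals3, galectin-3, had 2193, 2710.5 and 3462 in MRT brains, against 456, 433, 579 and 460 in untreated brains, and rose by 2.51 ± 0.30. Gpnmb, a lysosomal glycoprotein, had 2832, 3386.5 and 4053 in MRT brains, against 922, 785, 844 and 793 in untreated brains, and rose by 2.03 ± 0.26. In all 3 genes each MRT rat was above each untreated rat. Itgax, the CD11c integrin, rose by 2.10 ± 0.28. The mean of the phagocyte activation genes was 9.73 to 9.92 in MRT arrays, against 8.26, 8.52, 8.68 and 8.39 in untreated arrays, and 15 of the 21 were called higher without untreated rats 29 and 30.

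Of 8 homeostatic microglia markers, none was higher and 2 were lower, with a median log2 difference of -0.43. The number called lower was 5 when only the 10 arrays were fitted, 4 with array weights or with the mean of the striatal projection neuron genes as a covariate, and 0 without untreated rats 29 and 30, where the median was -0.31. Tmem119, a microglial membrane protein, had 134, 151.5 and 174 in MRT brains, against 438, 503, 1095 and 334 in untreated brains. P2ry12, the microglial receptor for ADP, had 236, 344.5 and 418 in MRT brains, against 996, 968, 890 and 684 in untreated brains. The groups were separate for both, which fell by 1.80 ± 0.33 and 1.39 ± 0.40. P2ry12 passed narrowly (adjusted p = 0.025), and its adjusted p was 0.0918 without untreated rat 28, 0.0673 without rat 29, 0.068 without rat 30 and 0.056 without MRT rat 35. Tmem119 kept its call without any 1 array and was at 0.0654 without untreated rats 29 and 30. Other markers of the list did not pass, though some of them were lower too. Of the 8, 5 lay entirely below the untreated rats, beside 3.56% of all genes, and 1 lay entirely above. At an unadjusted p under 0.05 by limma, 5 were lower and 0 higher. Among the least changed, Cx3cr1, the fractalkine receptor, had a log2 difference of 0.15. Csf1r, the growth factor receptor of microglia and macrophages, had one of -0.03.

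Of 19 macrophage and monocyte markers, 9 were higher and none was lower, with a median of 0.66. Lyz2, lysozyme, had 12701, 13525 and 14982 in MRT brains, against 1554, 3291, 2533 and 4056 in untreated brains, and rose by 2.35 ± 0.30. Ms4a7, a membrane protein of macrophages, had 152, 233 and 247 in MRT brains, against 24, 37, 39 and 58 in untreated brains, and rose by 2.49 ± 0.29. Both were separate between the groups. The Fc receptor genes Fcgr1a, Fcgr3a and Fcer1g rose by 1.64 ± 0.21, 1.65 ± 0.30 and 1.26 ± 0.21. Microglia and infiltrating macrophages share many of these transcripts, and these data cannot tell them apart.

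Lymphocyte and neutrophil markers held 1 call. Of 22 T and NK cell markers 1 was higher, Klrk1, an activating receptor of NK and T cells, which had 81, 91 and 108 in MRT brains, against 76, 63, 73 and 60 in untreated brains. Its adjusted p of 0.033 became 0.121 without untreated rat 39, 0.0987 without rat 29, 0.0501 without rat 30, 0.074 without MRT rat 33 and 0.0759 without MRT rat 37. Cd3d, a chain of the T cell receptor complex, had 27, 38 and 90 in MRT brains, against 29, 41, 26 and 69 in untreated brains, with full overlap. None of 7 B and plasma cell markers and none of 8 neutrophil markers passed limma's test at an adjusted p under 0.05, and at an unadjusted p under 0.05 there were 1 higher and 1 lower B and plasma cell marker and 1 higher neutrophil marker.

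Complement genes divided by component. Of 12 measured, 4 were higher and none was lower, with a median log2 difference of 0.52. Serping1, the inhibitor of the first complement component, had 1693, 1950.5 and 2790 in MRT brains, against 477, 399, 337 and 440 in untreated brains, with a log2 difference of 2.35 ± 0.22 (adjusted p = 1e-11). C5ar1, the receptor of the anaphylatoxin C5a, had 238, 252 and 301 in MRT brains, against 120, 63, 103 and 79 in untreated brains, and rose by 1.54 ± 0.22. Both were separate in all rats. C1s, a protease of the classical pathway, rose by 1.12 ± 0.27, and was at an adjusted p of 0.0537 without untreated rat 28. C1qa and C1qb, chains of the recognition molecule, had log2 differences of 0.24 ± 0.20 and -0.08 ± 0.23 and did not pass. C1qa had 2376, 2668 and 2961 in MRT brains, against 2223, 2569, 2126 and 2234 in untreated brains, which overlapped.

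Some chemokines and acute inflammatory genes were raised at 8 d, beside 4.87% of all genes called higher. Of 22 chemokines, 6 were higher and none was lower, with a median log2 difference of 0.21. Ccl2, which recruits monocytes, had 293, 498 and 889 in MRT brains, against 50, 49, 123 and 82 in untreated brains, and rose by 2.82 ± 0.43. Cxcl16, a membrane-bound chemokine, had 745, 834 and 969 in MRT brains, against 144, 182, 184 and 181 in untreated brains, and rose by 2.28 ± 0.22. Ccl6 and Ccl7 rose by 1.59 ± 0.27 and 2.05 ± 0.40. Ccl4 passed at 0.026, and its call ended without any 1 of the 4 untreated rats (adjusted p of 0.0548 to 0.0732) and without MRT rat 38 (0.0504). Of 20 acute inflammatory genes, 3 were higher, with a median of 0.20: Bcl3, a regulator of NF-kappaB, Cebpd, a transcription factor of the acute phase, and Icam1, the leukocyte adhesion molecule, by 1.42 ± 0.26, 1.36 ± 0.25 and 1.25 ± 0.27.

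Astrocyte genes were partly raised. Of 15 reactive astrocyte genes, 5 were higher and none was lower, with a median log2 difference of 0.38. Gfap, the astrocyte intermediate filament, had 9389, 12746 and 14671 in MRT brains, against 8869, 3909, 6123 and 5474 in untreated brains. The groups nearly touched at untreated rat 28, and the log2 difference was 1.09 ± 0.26 (adjusted p = 0.0042), or 0.83 with an adjusted p of 0.211 without untreated rats 29 and 30, when 3 of the 15 were called higher. S1pr3, a sphingosine phosphate receptor, rose by 1.44 ± 0.22, Hspb1, a small heat-shock protein, by 1.66 ± 0.34 and Aspg, an asparaginase, by 0.93 ± 0.18. Cp, ceruloplasmin, passed at 0.037 and lost its call without any 1 of untreated rats 28, 29 and 30 (0.106 to 0.139) or of MRT rats 32, 34, 35 and 37 (0.0522 to 0.0816). Of 13 astrocyte markers, none was higher and 2 were lower. Gjb6, connexin 30 in the usual protein naming, had 549, 607 and 662 in MRT brains, against 1453, 1543, 1318 and 1373 in untreated brains, and fell by 1.23 ± 0.24. Aldoc, the brain aldolase, had 5682, 6084 and 6409 in MRT brains, against 9527, 9646, 8916 and 9757 in untreated brains, and fell by 0.64 ± 0.09.

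Oligodendrocyte precursor markers were lower. Of 15 measured, 7 were lower and none was higher, with a median log2 difference of -0.55. Pdgfra, the receptor that holds these cells in their precursor state, had 326, 439 and 478 in MRT brains, against 1543, 1777, 2579 and 1409 in untreated brains. No rat of either group came near the other group, and Pdgfra fell by 2.11 ± 0.22 (adjusted p = 3.5e-10). Vcan, the proteoglycan versican, had 90, 104.5 and 144 in MRT brains, against 302, 523, 1365 and 241 in untreated brains, and fell by 2.16 ± 0.41. Its highest untreated values were in rats 30 and 29, and without them the log2 difference was -1.33 with an adjusted p of 0.168. Cspg4, the NG2 proteoglycan, had 53, 68 and 83 in MRT brains, against 113, 123, 126 and 92 in untreated brains, and fell by 0.75 ± 0.14. Bmp4, a growth factor of early oligodendrocytes, fell by 0.98 ± 0.19, and Bcan, brevican, fell by 0.71 ± 0.13. C1ql1 fell by 0.76 ± 0.20, and its adjusted p was 0.121 without untreated rat 28 and 0.0602 without rat 30. Without untreated rats 29 and 30, 4 of the 15 were called lower. The mean of the oligodendrocyte precursor markers was 7.55 to 7.77 in MRT arrays, against 8.35, 8.34, 8.40 and 7.91 in untreated arrays.

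Of 17 myelin genes, 4 were lower and none was higher, with a median log2 difference of -0.16. Hapln2, a link protein of the nodes of Ranvier, had 179, 216.5 and 270 in MRT brains, against 584, 513, 453 and 270 in untreated brains, where untreated rat 39 met the highest MRT rat, and it fell by 1.02 ± 0.22. The other 3 calls ended when 1 array was left out. Aspa, aspartoacylase, was at 0.16 without untreated rat 28, Mal was at 0.13 without untreated rat 29, 0.0805 without rat 28 and 0.0528 without MRT rat 38, and Mobp was at 0.21 without untreated rat 29, 0.0802 without rat 28, 0.064 without MRT rat 35 and 0.0767 without MRT rat 38. Without untreated rats 29 and 30 none of the 17 was called by limma, at an adjusted p under 0.05.

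Glucocorticoid-responsive genes were lower, with 8 of 17 lower, 1 higher and a median log2 difference of -0.32. Fkbp5, a chaperone of the glucocorticoid receptor, had 307, 319 and 390 in MRT brains, against 934, 907, 766 and 604 in untreated brains. All MRT rats were below all untreated rats, and Fkbp5 fell by 1.24 ± 0.16 (adjusted p = 2.6e-07). Sgk1, the serum- and glucocorticoid-regulated kinase, had 1382, 1436 and 2297 in MRT brains, against 4954, 4424, 4042 and 2759 in untreated brains, and fell by 1.33 ± 0.22. Tsc22d3, the leucine zipper protein GILZ, fell by 0.74 ± 0.13. Sult1a1, Gpd1 and Pdk4, given above, belong to this list too, and the raised member was Cebpd. The list was written with earlier results of these data known, and Sult1a1 and Gpd1 are among the largest falls. Its count of lower members is therefore not independent of these data. Without untreated rats 29 and 30, 6 of the 17 were called lower. For 3 of these genes the untreated brains at 8 d were above the untreated brains at the earlier times: the median intensity of Fkbp5 was 836.5 in them, 412.5 in untreated brains at 48 h and 448 in untreated brains at 6 h, that of Sult1a1 was 1445, 352.5 and 458, and that of Gpd1 was 2884, 853.5 and 1669. The median of Sult1a1 in MRT brains was 201 at 8 d, 246 at 48 h and 338 at 6 h.

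Vessel and matrix genes changed in single members, beside 4.87% of all genes called higher and 1.78% called lower. For a list of 20 genes, 1 member called higher is near the share over all genes. Of 24 endothelial and barrier genes, 3 were higher and 2 lower, with a median of 0.02. Emcn, the endothelial sialomucin endomucin, had 361, 402 and 488 in MRT brains, against 212, 223, 179 and 245 in untreated brains, and rose by 0.92 ± 0.21. Kdr, a receptor of vascular endothelial growth factor, rose by 0.75 ± 0.18 and Slc16a1, a monocarboxylate transporter, by 0.72 ± 0.13. Abcg2, an efflux pump of the blood-brain barrier, had 235, 287.5 and 315 in MRT brains, against 603, 931, 612 and 882 in untreated brains, and fell by 1.39 ± 0.22. Mfsd2a, the barrier's lipid transporter, had 154, 188.5 and 214 in MRT brains, against 405, 422, 333 and 274 in untreated brains, and fell by 0.91 ± 0.16. These 5 genes were separate between the groups, and Emcn was at an adjusted p of 0.111 without untreated rats 29 and 30. Of 20 mural and meningeal cell markers, Igfbp2, an insulin-like growth factor binding protein, was higher, with 1549, 2248.5 and 2887 in MRT brains, against 508, 509, 457 and 459 in untreated brains, and a rise of 2.17 ± 0.25. Acta2, smooth muscle actin, was the lower one (-0.51 ± 0.14), and its adjusted p was 0.254 without untreated rat 30, 0.14 without rat 28 and 0.0503 without MRT rat 32. Of 20 matrix and TGF-beta genes, Plau was higher and Lox and Col6a2 were lower, with a median of -0.40. Lox had 54, 69.5 and 76 in MRT brains, against 71, 189, 514 and 197 in untreated brains, and its adjusted p was 0.184 without rat 30. Col6a2 had 51, 59 and 77 in MRT brains, against 86, 103, 659 and 66 in untreated brains, and was at 0.49 without rat 30, the array with the high 9L transcripts. Without rat 30, 4 of the 20 were called higher and none lower, and without untreated rats 29 and 30 the median of the list was 0.11.

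Neuronal lists held almost no calls, and genes of brain regions differed between arrays of 1 group. None of 23 neuron markers passed at an adjusted p under 0.05 by limma, with 1 higher and 6 lower at an unadjusted p under 0.05 and a median of -0.06. None of 19 striatal projection neuron genes passed either, although 9 were higher at an unadjusted p under 0.05 and the median was 0.73. When only the 10 arrays of the comparison were fitted, 7 of the 19 were called higher, and 2 were without untreated rat 29 or without MRT rat 35. With the mean of the list as a covariate its median was -0.02, but that covariate is made of the same genes. A small median was therefore built in and tells nothing about the region sampled. Drd1, the dopamine receptor of direct-pathway neurons, had 535, 1035.5 and 1825 in MRT brains, against 226, 1041, 206 and 207 in untreated brains, where rat 29 stood with the MRT rats. The mean of the striatal projection neuron genes was 9.39 to 10.59 in MRT arrays, against 8.99, 10.00, 8.98 and 8.86 in untreated arrays. Of 15 cortical excitatory neuron genes none passed, 6 were lower at an unadjusted p under 0.05, and the median was -0.34. The number called lower was 3 when only the 10 arrays were fitted and 4 with array weights. Slc17a7, the vesicular glutamate transporter of cortical neurons, had 1255, 1589 and 2238 in MRT brains, against 5026, 1816, 5038 and 1825 in untreated brains, so untreated rats 28 and 30 were high and rats 29 and 39 lay within the MRT range.

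Choroid plexus markers were high in the MRT arrays and in untreated rat 29. Of 16 choroid plexus markers 3 were higher, with a median of 0.81. Ttr, transthyretin, had 7923, 15525.5 and 17763 in MRT brains, against 137, 12735, 166 and 174 in untreated brains. Untreated rat 29 lay with the MRT rats, far above the other 3 untreated rats, and the log2 difference was 4.83 ± 1.11. With the choroid plexus markers as a covariate the adjusted p of Ttr was 0.061 and the median of the list was -0.09. Here too the covariate is made of the list's own genes, Ttr included, so a weaker difference was built in. At the other times Ttr was high in most untreated brains, with a median of 13360 at 48 h and 15327 at 6 h. Sostdc1, a secreted antagonist of bone morphogenetic proteins, and F5, coagulation factor V, passed with all 10 arrays at 0.022 and 0.037. Sostdc1 lost its call without untreated rats 28, 30 or 39 (0.0642 to 0.114) or MRT rats 32 or 34 (0.052 and 0.0571), and F5 without untreated rats 28, 30 or 39 (0.0863 to 0.123) or MRT rats 32, 33, 34 or 37 (0.0598 to 0.091). Of 8 ependymal markers 6 were higher, with a median of 0.90, and with the choroid plexus markers as a covariate 1 of the 8 was called higher. Rarres2, chemerin, had separate groups, with untreated rat 29 among the other untreated rats. It had 830, 1320.5 and 1575 in MRT brains, against 620, 653, 483 and 749 in untreated brains, a rise of 1.01 ± 0.14 (adjusted p = 4.2e-07), and Foxj1, the master regulator of motile cilia, rose by 0.84 ± 0.20. Ak7, Cfap144 and Dynlrb2 each lost their call without at least 1 of untreated rats 28, 30 and 39, at adjusted p values from 0.0547 to 0.239, and without MRT rats 32 or 34, at 0.0662 to 0.115, and Ak7 also without MRT rats 33 or 37, at 0.0776 and 0.0687. With the striatal projection neuron genes as a covariate, another measure of the region sampled, 1 of 16 choroid plexus markers (median 0.56) and 3 of 8 ependymal markers (median 0.62) were called higher. When only the 10 arrays of the comparison were fitted, 9 of 16 choroid plexus markers were called higher.

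**Figure D2:**
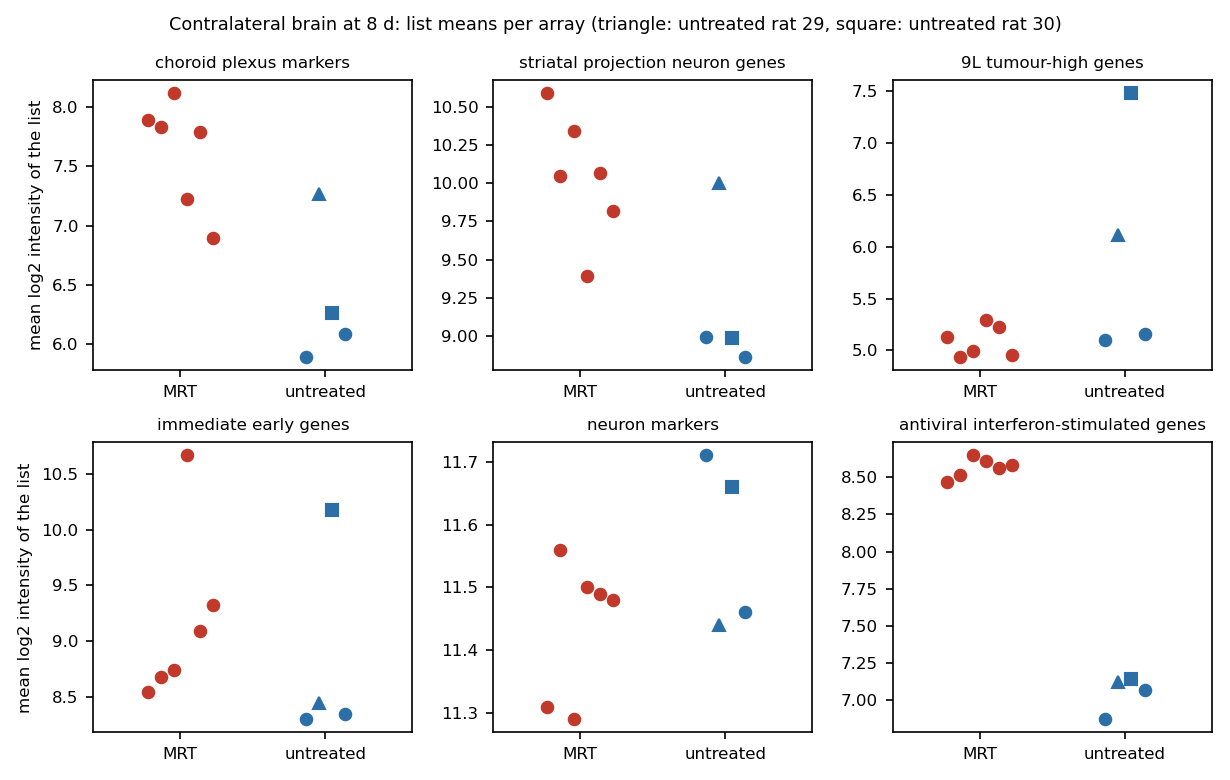
Mean log2 intensity over the measured genes of 6 lists in each array, MRT brains (red, left) beside untreated brains (blue, right), with a triangle for untreated rat 29 and a square for untreated rat 30. The antiviral interferon-stimulated genes separate the groups (8.47 to 8.65 against 6.87 to 7.14), while untreated rat 29 lies with the MRT brains for choroid plexus and striatal genes and untreated rat 30 is highest for the 9L tumour-high genes at 7.48.

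Some stress genes were higher, and metabolic and division genes held almost no calls. Of 12 stress and heat-shock genes, 4 were higher, beside 4.87% of all genes, with a median of 0.29, led by Hspb1, and 1 was higher without untreated rat 28. Ddit3, a transcription factor of the integrated stress response, was at an adjusted p of 0.0688 without untreated rat 28. Hspa1a, the inducible heat-shock chaperone, was at 0.135 and Trib3 at 0.293 without that rat, and both calls also ended without untreated rats 29 or 39 (0.0526 to 0.141) or MRT rats 32, 35 or 37 (0.0502 to 0.0774). Of 14 Nrf2 targets 3 were higher: Ephx1, the heme oxygenase Hmox1 by 1.49 ± 0.29 and the cystine transporter Slc7a11 by 0.65 ± 0.14. Among 18 immediate early genes Atf3 was the 1 member higher, with 3 higher without untreated rat 30, and among 21 hypoxia-induced genes Pfkfb3, a regulator of glycolysis, was the 1 member higher, with an adjusted p of 0.039 that became 0.116 without MRT rat 35 and 0.119 without untreated rat 28. The call of Pfkfb3 ended too without untreated rats 29, 30 or 39 (0.0624 to 0.0942) or MRT rats 34, 37 or 38 (0.0564 to 0.0589). None of 27 mitosis genes, 22 DNA replication genes, 16 cholesterol synthesis genes, 32 oxidative phosphorylation genes and 31 glutamate and GABA receptor genes passed limma's test. At an unadjusted p under 0.05 the mitosis genes had 0 higher and 1 lower, the DNA replication genes 2 and 1, the cholesterol genes 0 and 1, the oxidative phosphorylation genes 0 and 0, and the receptor genes 1 and 5, against 1802 higher and 956 lower over all genes. The sign of the mitosis genes' median turned in 3 alternative fits: it was -0.14 with all arrays, 0.15 without untreated rat 30, 0.34 without untreated rats 29 and 30, and 0.52 with the 9L genes as a covariate, when 7 of the 27 were called higher. With that covariate 3 of the 22 DNA replication genes were called higher, and 1 was without untreated rat 30. The potassium channel genes had 1 of 26 higher and 2 lower, the neuroblast and progenitor markers 1 of 14 higher and 1 lower, the thalamic neuron genes 1 of 7 higher, the interneuron genes 1 of 7 higher and 1 lower, and each of these calls ended when 1 array was left out. None of 4 red blood cell markers passed, and none had an unadjusted p under 0.05.

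**Figure D3:**
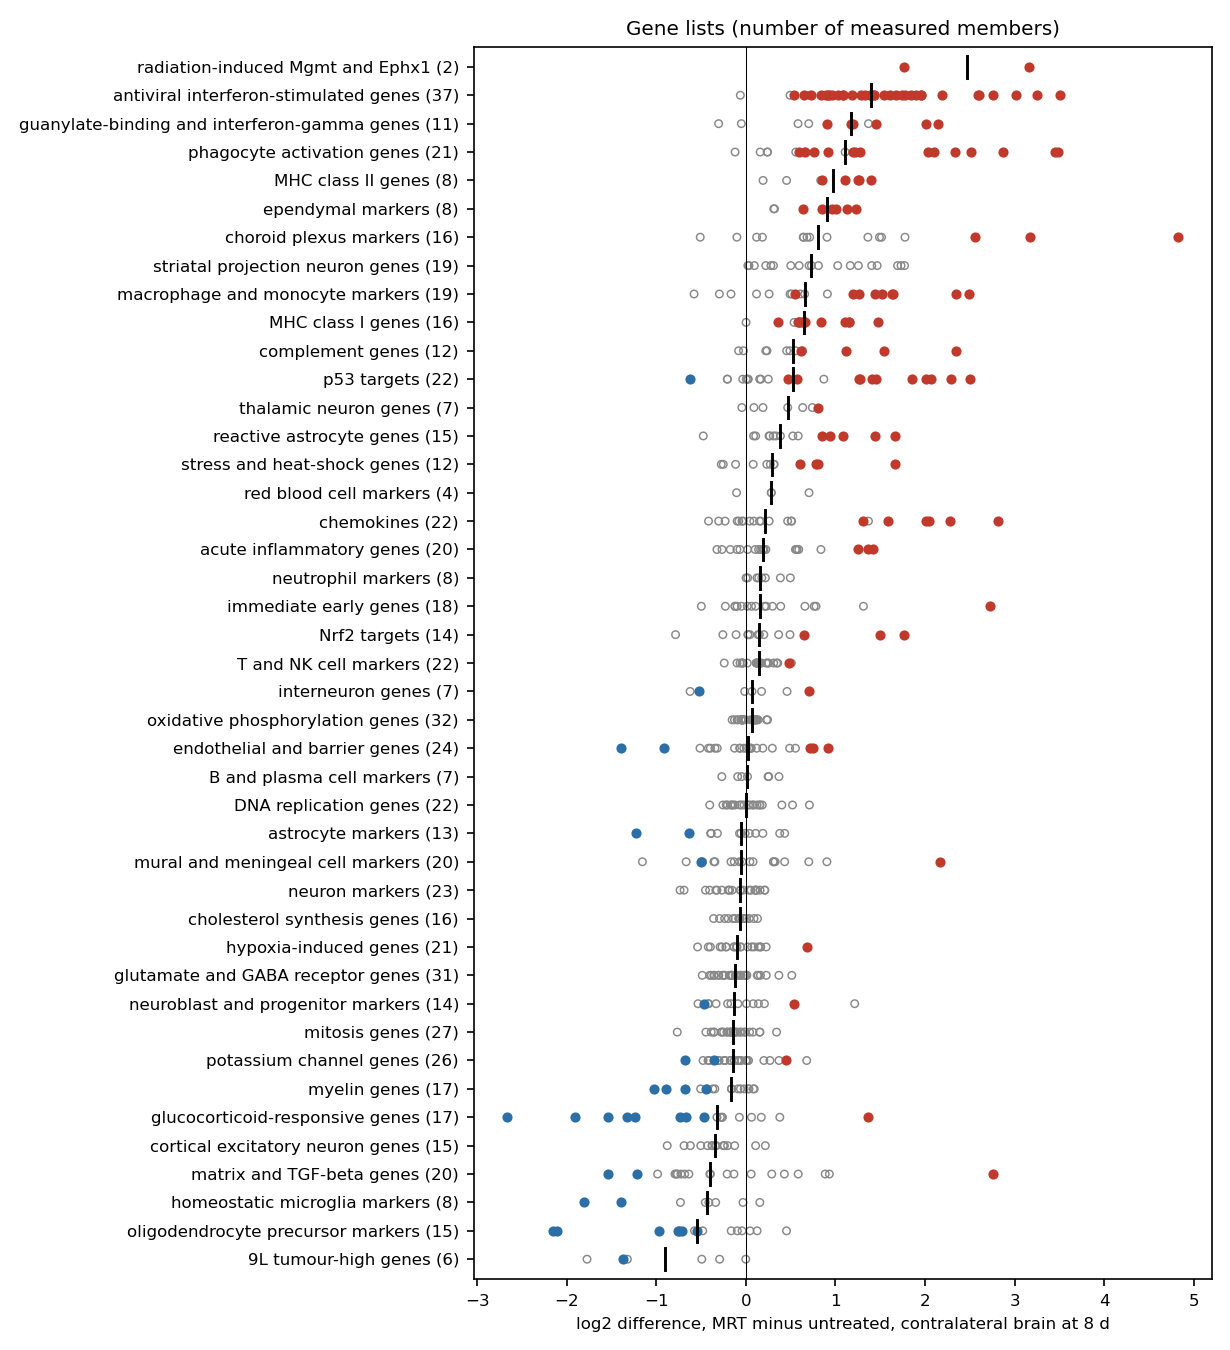
Log2 difference in intensity, MRT minus untreated brain at 8 d, for each measured gene of the 43 lists, with a black bar at the list median, red filled points for genes called higher, blue filled points for genes called lower and open grey points for genes not called. The antiviral interferon-stimulated genes (median 1.40) and phagocyte activation genes (1.11) lie to the right with most members called, and the oligodendrocyte precursor markers (-0.55) lie to the left.

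The MRT effect at 8 d, the difference between MRT and untreated brain, was set against that at 48 h and at 6 h with an interaction contrast, which used other rats for each time. The effect at 8 d minus that at 48 h passed for 268 probe sets (0.863%) and 154 genes (1.08%), 112 of them higher at 8 d (0.788%) and 42 lower (0.295%). For probe sets the split was 212 higher (0.683%) and 56 lower (0.18%), and 103 and 62 with every array set to 1 shared median. This count depended on untreated rat 30, without which 112 probe sets passed, and on the fit, since 41 passed when only the groups of the contrast were fitted. The MRT effect of Mmp12 was 4.00 at 8 d and 1.98 at 48 h (adjusted p of the difference 0.00032), that of Irf7 was 2.76 and 1.26 (0.017) and that of Usp18 was 2.59 and 1.02 (0.031). For Plau the effects were 2.76 and 1.41 (0.049), for H4cl1 2.07 and 0.40 (2.7e-05) and for Hist4h4 2.14 and 0.81 (0.0023). These genes had a larger MRT effect at the later time. MHC class II genes had a smaller one: 5 of 8 were lower at 8 d than at 48 h, with a list median of 0.98 at 8 d and 3.51 at 48 h. For RT1-Da the effect was 1.25 at 8 d and 4.26 at 48 h (adjusted p = 0.0019). The intensity of RT1-Da in MRT brains was similar at both times, with medians of 3294.5 at 8 d and 3458 at 48 h, and the untreated medians were 1434 and 165.5. Plac8 and S100a6, genes of monocytes and of migrating or transformed cells, had effects of -0.30 and -0.55 at 8 d, and of 3.00 and 2.40 at 48 h. No difference from 48 h passed for 22 p53 targets, where the medians were 0.52 at 8 d and 0.92 at 48 h, nor for the oligodendrocyte precursor markers (-0.55 and -0.42). On simulated data this contrast recovered 12% of changes of 0.5 on the log2 scale, so differences of that size would mostly be missed.

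The effect at 8 d minus that at 6 h passed for 665 probe sets (2.14%) and 449 genes (3.16%), 272 higher (1.91%) and 177 lower (1.24%) at 8 d. Acute inflammatory genes had their larger effect at 6 h: 14 of 20 were lower at 8 d, with medians of 0.20 at 8 d and 1.68 at 6 h, and so were 15 of 22 chemokines, with medians of 0.21 and 3.04. Sele, the E-selectin of activated endothelium, had an effect of 0.57 at 8 d and 5.08 at 6 h (adjusted p of the difference 2.1e-17). Its intensity in MRT brains had a median of 16.5 at 8 d and 411 at 6 h. Ccl2 had effects of 2.82 and 7.27 (2e-07), and Ccl9, another monocyte chemokine, effects of 0.09 and 4.70 (2.7e-12). Gbp2, Cxcl10 and Cxcl11 were lower at 8 d by 4.20, 4.01 and 4.64. The reverse held for Mgmt, whose effect was 3.17 at 8 d, 2.90 at 48 h and 0.64 at 6 h (adjusted p of 8 d minus 6 h 2.1e-13). It also held for Slamf9, with 2.75 at 8 d and 0.09 at 6 h, for Ms4a7, with 2.49 and -0.14, and for Igfbp2, with 2.17 and -0.22. Cdkn1a had a smaller effect at 8 d, 2.50 against 3.92 at 6 h (adjusted p = 0.0014), with 3 of 22 p53 targets lower at 8 d than at 6 h. Of the endothelial and barrier genes, 10 of 24 had a higher effect at 8 d, with medians of 0.02 at 8 d and -0.48 at 6 h. Emcn had effects of 0.92 at 8 d and -1.79 at 6 h. Glucocorticoid-responsive genes were lower at 8 d than at 6 h in 10 of 17, with medians of -0.32 and 0.29.

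**Figure D4:**
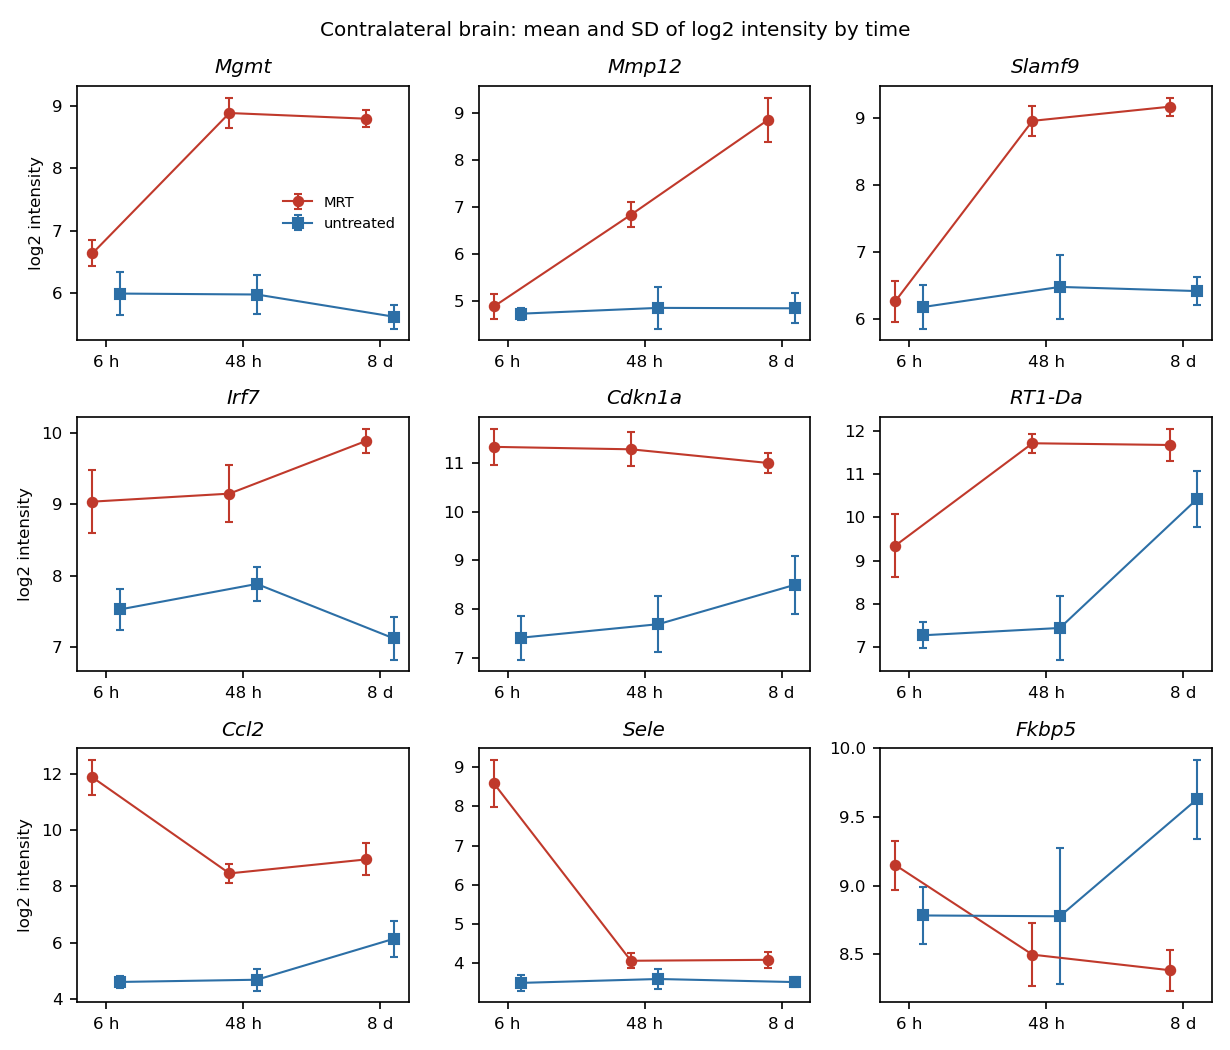
Mean log2 intensity with SD of 9 genes in contralateral brain at 6 h, 48 h and 8 d, MRT rats (red circles) and untreated rats (blue squares). Mgmt and Slamf9 separate from 48 h on and Mmp12 moves further apart by 8 d, Ccl2 and Sele are farthest apart at 6 h, and the untreated level of RT1-Da and of Fkbp5 is higher at 8 d than earlier.

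MRT brains were also taken at 15 d, for which no untreated brain is analysed here, so only levels can be given. Mmp12 had a median intensity of 1130 in 4 MRT brains at 15 d and 464.5 in the 6 at 8 d. Mgmt had 434.5 at 15 d and 453.5 at 8 d, Irf7 had 949.5 and 977, and Cdkn1a had 1606 and 2052. Pdgfra, low at 8 d with a median of 439, had 603.5 at 15 d.

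The MRT effect in the contralateral brain was then set against that in the tumours of the same study at 8 d, in a fit of all 115 arrays. The 2 effects differed for 8439 probe sets (27.2%) and 4883 genes (34.3%), of which 2870 had the higher effect in brain (20.2%) and 2013 in tumour (14.2%). Brain transcripts differed between the tumour groups. Neuron markers were higher in MRT than in untreated tumours for 19 of 23 (median 1.43), and myelin genes for 15 of 17 (median 1.37). With the neuron markers as a covariate 3215 probe sets passed. How far the tissue content of the tumour pieces made the differences below was not tested. Mgmt had an effect of 3.17 in brain and 3.15 in tumour, a difference that did not pass (adjusted p = 0.98), and the antiviral interferon-stimulated genes had medians of 1.40 in brain and 1.30 in tumour. Single antiviral genes differed between the tissues about as often as genes in general. Of 37, 8 had the higher effect in brain and 6 in tumour, beside 20.2% and 14.2% of all genes. The p53 targets stood apart: 11 of 22 had a higher effect in brain and 1 in tumour, with medians of 0.52 in brain and 0.07 in tumour. Phlda3 had an effect of 2.06 in brain and -0.36 in tumour (adjusted p = 1.8e-09), and Mdm2 one of 1.26 in brain and 0.06 in tumour (4.2e-07). Cdkn1a had effects of 2.50 in brain and 1.46 in tumour (0.01). All 27 mitosis genes were lower in MRT tumours, beside 26.7% of all genes, with a median of -1.54, while the median in brain was -0.14, or 0.34 without untreated rats 29 and 30. T and NK cell markers were higher in MRT tumours for 20 of 22, beside 23.5% of all genes, with a median of 2.10, and 19 had a lower effect in brain, where the median was 0.14. Cd3d had effects of 0.12 in brain and 3.35 in tumour, and Gzmb, the cytotoxic protease, 0.36 and 3.65. Pnpla2 was opposite in sign, with -1.28 in brain and 0.71 in tumour (2e-08). Aqp1 and Col8a2 had effects of -0.51 and 0.62 in brain and of -5.53 and -4.98 in tumour.

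**Figure D5:**
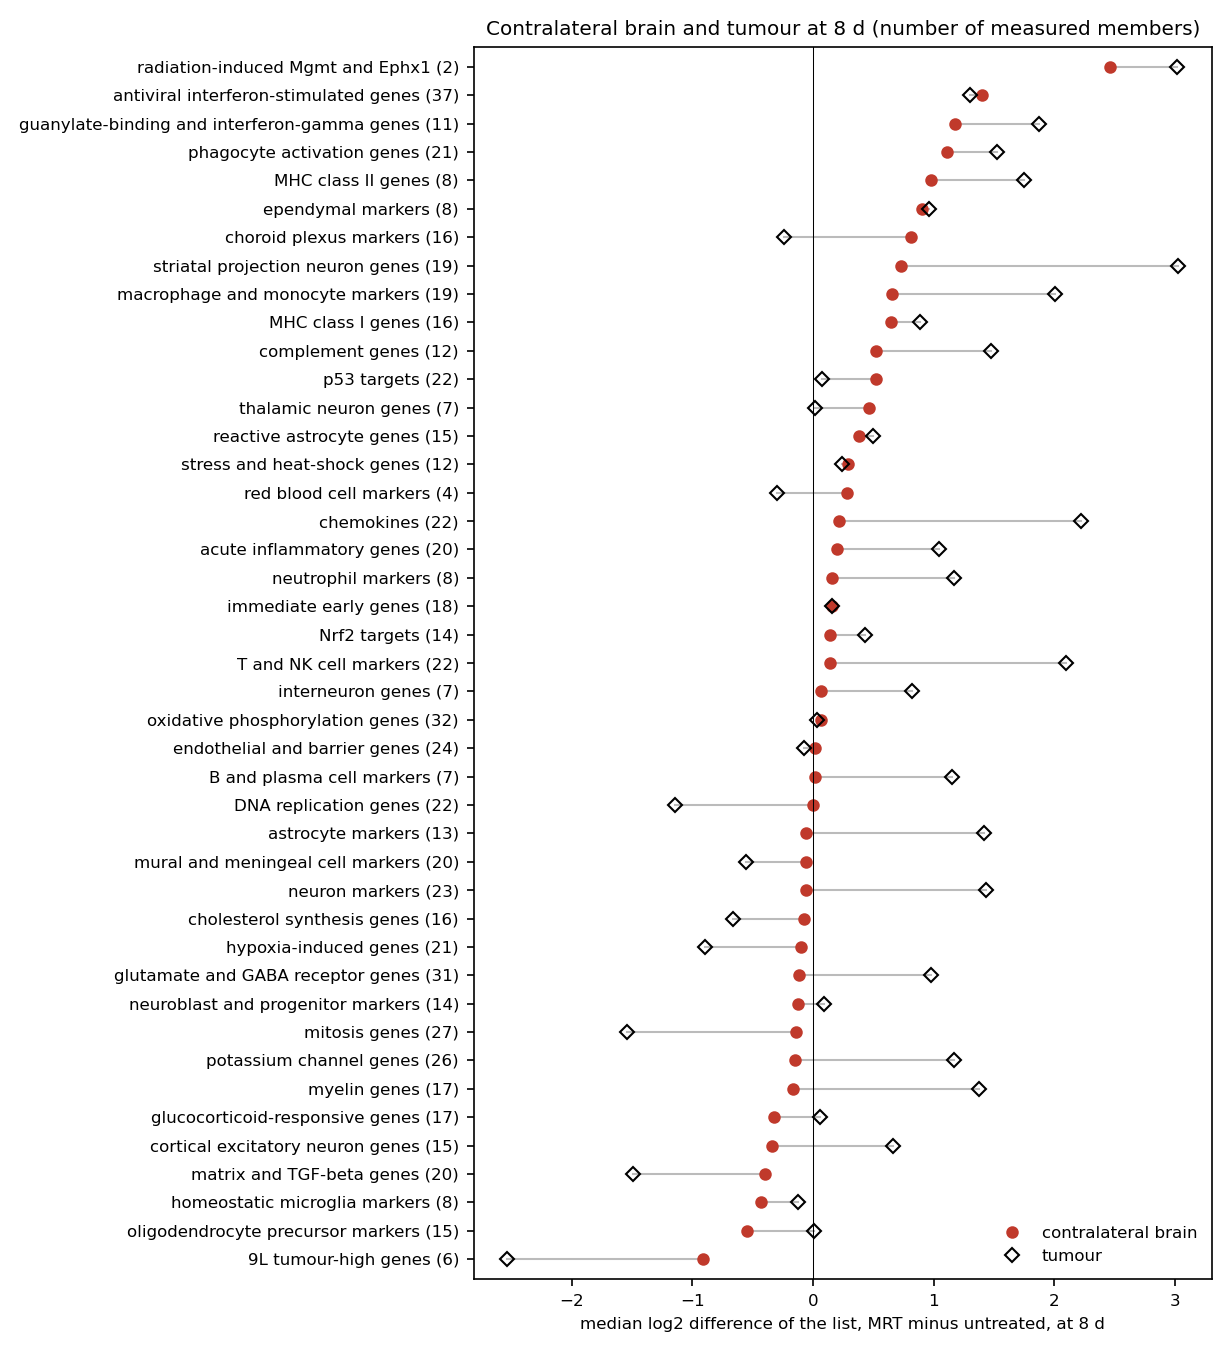
Median log2 difference, MRT minus untreated at 8 d, of each gene list in contralateral brain (red dots) and in tumour (open diamonds). The medians of the antiviral interferon-stimulated genes lie close together at 1.40 in brain and 1.30 in tumour, while mitosis genes (-0.14 and -1.54) and T and NK cell markers (0.14 and 2.10) lie apart.

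The broad beam group at 8 d had 4 rats and was set against the same 4 untreated rats, so the 2 comparisons share their controls and are given side by side without a test between them. Against those controls, MRT passed for 693 genes higher and 253 lower, and BB passed for 402 higher (2.83%) and 319 lower (2.24%). Mgmt had an effect of 3.17 for MRT and 2.25 for BB, and Cdkn1a one of 2.50 for MRT and 1.62 for BB. The antiviral interferon-stimulated genes had 34 and 16 of 37 higher, with medians of 1.40 for MRT and 0.63 for BB, and the p53 targets had 11 and 6 of 22 higher. The BB rats were unlike each other in the antiviral list. Its mean was 7.26 to 8.44 in BB arrays, against 8.47 to 8.65 in MRT arrays. In untreated arrays it was 6.87 to 7.14. Phagocyte activation genes had 14 of 21 higher for MRT, with a median of 1.11, and 5 higher and 2 lower for BB, with a median of 0.08. Their mean was 8.35 to 9.195 in BB arrays, 9.73 to 9.92 in MRT arrays and 8.26 to 8.68 in untreated arrays. For Mmp12 the effects were 4.00 and 0.52, for Gpnmb 2.03 and -0.27, for Serping1 2.35 and 0.18 and for Gfap 1.09 and -0.16. The oligodendrocyte precursor markers had 7 of 15 lower in both, with medians of -0.55 for MRT and -0.57 for BB, and Sult1a1 had effects of -2.67 and -2.28. Choroid plexus markers had 3 of 16 higher for MRT and 7 for BB, and striatal projection neuron genes had 0 of 19 higher for MRT, or 7 when only the 10 arrays of that comparison were fitted, and 9 for BB.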

How the data were processed

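Total RNA was isolated with a mirVana kit and biotin-labelled for Affymetrix 3' expression arrays, per the labels' protocols. The deposited values were whole-number intensities per probe set and array, on a linear scale from 7 to 27837. RMA, MAS5 and Affymetrix Expression Console are named in the submitters' processing notes, which do not say which of them made these values. The number of arrays limits the precision. Here log2 was taken of the deposited intensities with no further normalization. The medians of the 10 arrays were 123 to 131, and the 10 arrays correlated pairwise at 0.9754 to 0.996.

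Differences were tested with limma 3.58.1 in R 4.3.3, with 1 mean per group over all 56 contralateral arrays, an intensity trend in eBayes and Benjamini-Hochberg adjustment over 31042 probe sets. A call is an adjusted p under 0.05. The comparison with tumours used all 115 arrays. The platform annotation gave 20826 probe sets 1 gene symbol, 436 several and 9780 none. A gene is its brightest probe set over all arrays. The 330 called probe sets without 1 symbol are not named.

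Members and lists were chosen with earlier results of these data known. Named were the 15 largest rises and falls among called genes with separate groups, up to 6 called members per list and direction (3 of a list with none), up to 8 genes per interaction and direction, and any member of a list of at most 12. Rat numbers pair tissues because they mark the same animal. The deviations of the 9 pairs correlated at a median of 0.1518, and 5 pairs were above 0.1. On simulated data for MRT against untreated brain at 8 d, the fit recovered 40% of probe sets changed by 0.5 on the log2 scale. It recovered 90% of those changed by 1, with 15 false among 180 calls. For the interactions these shares were 12% and 70% at 8 d minus 48 h and 14% and 80% at 8 d minus 6 h. They were 10% and 62% for brain minus tumour. Alternatives left out each array, changed the filter, scaling, log2 offset, weights and fitted groups, and added covariates. Promoters came from RefSeq; Python 3.11.15, pandas 2.3.3, numpy 2.4.6, data.table (version 1.17.8) and matplotlib 3.10.9 were used.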

Additional observations from a re-analysis of the deposited data

Results flagged for a closer look

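In 302 groups of 151 named genes, 18 had 1 array set apart by a gap that was large relative to the range of its group. Of these, 11 were untreated and 7 MRT. Chance alone marks about 5% of groups, and the count of 18 is near that rate. Intensities are given for that array and, in brackets, for the rest of its group. Among MRT brains, rat 35 had 629 for Atf3 (225 to 287), 2297 for Sgk1 (1382 to 1651) and 807 for Pfkfb3 (431 to 544). MRT rat 33 had 145 for Cxcl9 (32 to 48), 1443 for RT1-Db1 (737 to 890) and 37 for Gzmb (31 to 33), and MRT rat 32 had 2176 for Slc7a11 (1138 to 1446). Untreated rat 30 had 54 for Fas (30 to 32), 65 for Gdf15 (40 to 43), 449 for Hmox1 (219 to 237) and 47 for S100a9 (32 to 34). Untreated rat 29 had 1041 for Drd1 (206 to 226), 12735 for Ttr (137 to 174), 286 for Sostdc1 (32 to 46) and 95 for F5 (35 to 39). Untreated rat 28 had 144 for Cxcl16 (181 to 184) and 13 for Sele (11 in the others), and untreated rat 39 had 27 for Gzmb (25 in the others). Sele and Gzmb were dim in these arrays, so a gap of a few units was enough to mark them.

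Effects that differed between times or tissues by the test of the difference were the following, as log2 differences of the MRT effect. At 8 d minus 48 h, 268 probe sets passed. The effect was larger by 2.02 for Mmp12, 1.50 for Irf7, 1.58 for Usp18, 1.35 for Plau, 1.67 for H4cl1 and 1.33 for Hist4h4. The difference was -2.55 for Cd74, -3.01 for RT1-Da, -2.79 for RT1-Bb, -3.30 for Plac8 and -2.96 for S100a6. At 8 d minus 6 h, 665 probe sets passed. It was 3.85 for Mmp12, 2.52 for Mgmt, 2.66 for Slamf9, 2.63 for Ms4a7, 2.39 for Igfbp2 and 2.72 for Emcn. It was -4.45 for Ccl2, -4.01 for Cxcl10, -4.64 for Cxcl11, -4.20 for Gbp2, -4.52 for Sele and -4.61 for Ccl9. In brain minus tumour at 8 d, 8439 probe sets passed, with 2.42 for Phlda3, 1.20 for Mdm2, -2.0 for Pnpla2, 5.01 for Aqp1, 5.60 for Col8a2, -3.23 for Cd3d, -3.30 for Gzmb and -3.68 for Ccl17.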

How the results depend on the processing

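Of 133 named genes called at 8 d, 83 kept the call in all 24 alternatives, 41 lost it when 1 array was left out and none reversed. Without untreated rats 29 and 30, 39 of them lost it. With a covariate, 31 lost it for the choroid plexus markers, 24 for the neuron markers and 14 for the Gapdh difference. Under the choroid plexus covariate 33 of 37 antiviral and 13 of 21 phagocyte activation genes were called higher. Against 1521 probe sets called, 3103 passed with array weights, whose fit did not converge fully, 997 with the choroid plexus markers as a covariate and 792 without untreated rats 29 and 30 (leaving out 1 array gave 944 to 1516). Against 946 genes, these 3 gave 1884, 619 and 513 (610 to 929). A common median gave 982 probe sets higher and 898 lower, against 1017 and 504. For 8 d minus 48 h (268), 463 passed with the 9L genes as a covariate, 165 with a common median, 80 with the choroid plexus covariate, 41 with only the groups of the contrast, 94 with only untreated and MRT arrays, 165 without the dimmest 30% of probe sets and 42 without untreated rats 29 and 30 (112 to 284; 158 without MRT rat 34, 123 without untreated rat 28, 144 without rat 29, 112 without rat 30). Quantile normalization split it 128 higher and 74 lower. For 8 d minus 6 h (665), 1398 passed with array weights and 366 without rats 29 and 30 (504 to 642). For brain minus tumour (8439), 4263 passed with the 9L covariate and 3215 with the neuron covariate (7149 to 8233), and the replicate block, rat as a random effect with a consensus correlation of 0.138, gave 9558. The cause of these shifts was not tested. Leaving out untreated rats 29 and 30, and the 9L and striatal covariates, were chosen after seeing the data. On simulated data for MRT against untreated brain, with 4 untreated rats, 40% of changes of 0.5 on the log2 scale were recovered. For differences between times or tissues 10% to 14% were, and smaller changes were not simulated.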
